A study of Homo sapiens with 3 samples.

Results

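The genes of the proteasome were followed in 3 populations of cells made from H1, an established line of human embryonic stem cells. Members were all genes whose symbol begins with PSM, a letter from A to G and a number, which gave 49 of the 18345 genes listed in each library. Of these, 48 encode proteasome subunits, activators, an inhibitor or assembly chaperones. The remaining gene, PSMC3IP, encodes a cofactor of meiotic recombination and shares only the start of its name with them. Cells were differentiated towards blood with activin A and BMP4 and then with VEGF and bFGF, and those carrying CD31 and CD34 at day 4 were separated by surface CD105, the co-receptor endoglin. The populations were CD105high, CD105low and CD105neg, all 3 from the same unmodified line and culture, with 1 library each. No library has a replicate, so every difference below is a difference between single libraries, without a p-value or standard error.

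The 26S proteasome degrades proteins tagged with ubiquitin. Its core particle is a stack of alpha rings around beta rings, and the catalytic sites face inward from 3 of the beta subunits. A regulatory particle caps the core: its base holds a ring of ATPases that unfold the substrate, and its lid removes the ubiquitin. Interferon induces alternative catalytic subunits, PSMB8, PSMB9 and PSMB10, which replace PSMB5, PSMB6 and PSMB7 in newly built cores and form the immunoproteasome. Other caps, PA28 and PA200, open the core without ubiquitin or ATP.

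No unit is given in the labels or file headers, and the values are read here as FPKM, a level corrected for transcript length and for library size. They summed to 265618 FPKM in CD105high, 284824 FPKM in CD105low and 289229 FPKM in CD105neg. No source used here states how many fragments stand behind a value, so counting intervals are left out. The sort gene ENG stood at 13.8, 8.56 and 2.12 FPKM in CD105high, CD105low and CD105neg, CD34 at 43.2, 39.2 and 21.0 FPKM, and PECAM1, which encodes CD31, at 50.1, 41.9 and 29.9 FPKM. The value column of the CD105neg table is headed as CD105 positive, but ENG was lowest there. All 7 markers of the sorted endothelial type were present, and their summed level was 1197, 1062 and 702 FPKM, led in difference by ENG, CD34, CDH5 and TIE1. The summed levels of markers of other cell types had the opposite order. The 12 blood markers summed to 13.6, 27.0 and 70.2 FPKM, with HBE1, GYPB, RHAG and HBG2 differing most. CD3E was listed at 0 in all 3 libraries, and PTPRC, CD33 and CD14 stayed below 1 FPKM. Of the sampled transcript sequence of HBE1, HBG2 and GYPB, 81.6%, 64.5% and 15.6% also occurs in another annotated gene, against 2.79% for RHAG. Against CD105neg, all 8 measured blood markers were lower in CD105high by 1.5-fold or more, against 6.88% of all measured genes. Mesenchymal and mural markers summed to 386, 459 and 486 FPKM, with 5 of 9 at least 1.5-fold lower (PDGFRB, COL1A1, COL3A1 and TAGLN differing most) and 2, ACTA2 and PDGFRA, higher in CD105high than in CD105neg (log2 fold changes 0.23 and 0.16). Pluripotent and epithelial markers summed to 79.7, 89.7 and 98.4 FPKM. CDH1, EPCAM, DNMT3B and TDGF1 were lower, 1 of 5 past 1.5-fold, and DPPA4 was close to level (0.01). That list was fixed at 8 genes, but POU5F1, NANOG and LIN28A are not among the genes listed in the libraries, so their levels are unknown. In such bulk RNA, fewer cells of a type and less RNA per cell cannot be told apart. The part of these shifts in the proteasome values was not tested.

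Nearly all proteasome genes were lower in CD105high than in CD105neg, by modest amounts. Of the 46 members that reached 1 FPKM in at least 1 library, here called measured, 41 were lower by any amount, against 61.0% of the 11343 measured genes of the whole series. The median log2 fold change of the members was -0.27, against -0.09 over all measured genes; fold changes are ratios of FPKM plus 1. The other 5 members were higher, against 39.0% of all measured genes. A ratio of 0.8 or less to CD105neg was found for 17 members, against 22.8% of all measured genes, and PSME4 and PSMD10 were at least 25% above CD105neg, against 12.9%. At 1.5-fold, PSMC2, PSMA5, PSMG4, PSME2 and PSMB10 were lower, 5 members in all (background 6.88%), and none was higher (background 5.65%), so the large differences were few and the common pattern was a small one in most subunits. Scaling each library to the same sum moved the median of all measured genes by 0.11 on the log2 scale. Under that scaling the median of all measured genes was 0.02, and 37 members were lower and 9 higher. Of the 46 members, 8 then stood at a ratio of 0.8 or less and 3 at least 25% above. Centring on the median of all measured genes gave 40 members lower, against 50.0% of all measured genes, and 6 higher. After centring, 10 and 3 members were past those limits. Shares of all measured genes past those limits are not given for either rescaling. The signs of PSMB7, PSMD2, PSMD5 and PSMD12 depended on the scaling.

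Summed over the 49 members, the level was 2195 FPKM in CD105high, 2466 FPKM in CD105low and 2643 FPKM in CD105neg. As a share of each library this was 0.826%, 0.866% and 0.914%, the same order. The median measured member stood at 41.9, 48.3 and 51.2 FPKM, against 9.12, 9.76 and 9.43 FPKM for all measured genes. Proteasome transcripts are also short, with a median of 1139 bases against 1785 bases over the measured genes with an annotated length, and shorter genes tended to be lower in CD105high. Among the 4581 measured genes of 800 to 2000 bases, 65.8% were lower and the median log2 fold change was -0.13. Of the 35 members in that range, 32 were lower, with a median of -0.31. The part of length in the result was not tested further.

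**Figure D1:**
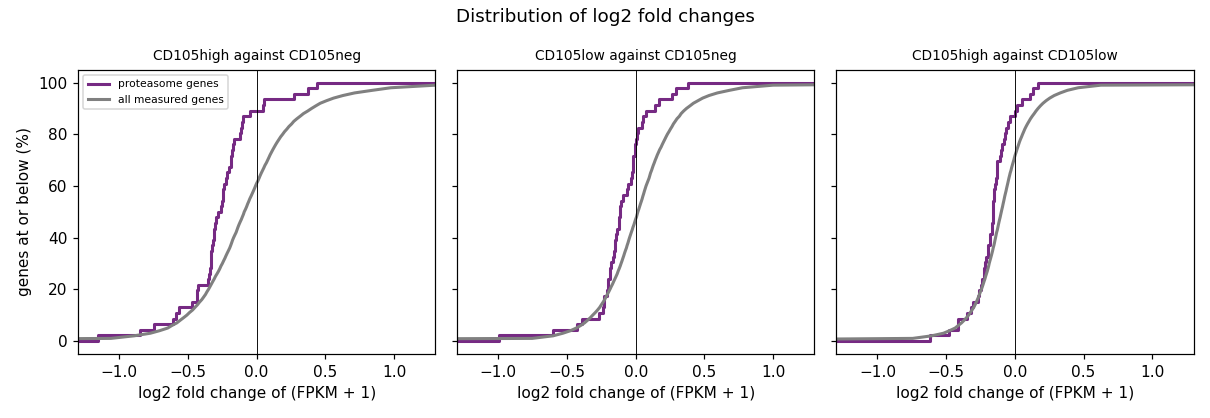
Cumulative distribution of the log2 fold change of FPKM plus 1 for the 46 measured proteasome genes (purple) and the 11343 measured genes (grey), 1 panel per pair of libraries. The purple curve lies left of the grey one around 0 in all 3 panels, with 41, 35 and 40 members below 0.

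The alpha ring, which forms the gate of the core, was lower in CD105high than in CD105neg in each of its 7 measured subunits, under all 3 scalings, against 61.0% of all measured genes on the deposited scale. PSMA5 differed most, at 32.6 FPKM in CD105high, 50.4 FPKM in CD105low and 59.6 FPKM in CD105neg. Its log2 fold change of CD105high against CD105neg was -0.85, a value below which lay 2.24% of all measured genes, and most of the gap opened between CD105low and CD105high (-0.61). PSMA2 stood at 76.7, 91.0 and 107 FPKM (-0.47), and PSMA6 at 69.5, 93.1 and 94.1 FPKM (-0.43). PSMA3 stood at 64.3, 71.4 and 81.5 FPKM (-0.34). For PSMA6, CD105low and CD105neg were almost level and CD105high stood apart, whereas PSMA2 and PSMA3 were spaced across the 3 libraries. PSMA1, PSMA4 and PSMA7 lay between -0.26 and -0.20 in CD105high against CD105neg and were close to equal in CD105low and CD105neg, with signs there that turn on the scaling. PSMA8, which replaces PSMA7 in the testis, was listed at 0 in all 3 libraries. PSMA2, PSMA6 and PSMA1 are uncertain, since 43.6%, 42.2% and 35.5% of their sampled transcript sequence also occurs in another annotated gene, whereas no sequence of PSMA5 does. Relative to the median of the other 6 expressed alpha genes, PSMA5 stood at 0.48, 0.59 and 0.68 in CD105high, CD105low and CD105neg, although the ring holds equal numbers of each subunit. The median annotated transcript length of PSMA5 is 2616.5 bases, against 773 to 1266 bases for the other 6. The part of length in that ratio was not tested.

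The structural subunits of the beta ring were also lower. PSMB1 stood at 149 FPKM in CD105high, 163 FPKM in CD105low and 188 FPKM in CD105neg, in CD105high and CD105neg the highest of any member (log2 fold change of CD105high against CD105neg -0.33). PSMB4 stood at 112, 133 and 144 FPKM (-0.36), and PSMB3 at 116, 131 and 133 FPKM (-0.19). PSMB2 broke the order: it was highest in CD105low, at 15.4, 21.9 and 17.7 FPKM, which gave -0.48 for CD105high against CD105low and 0.30 for CD105low against CD105neg. It was also far below its neighbours in the ring in every library. Its median annotated transcript length is 3459 bases, against 641.5 to 964 bases for PSMB1, PSMB3 and PSMB4. The part of length in that gap was not tested.

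**Figure D2:**
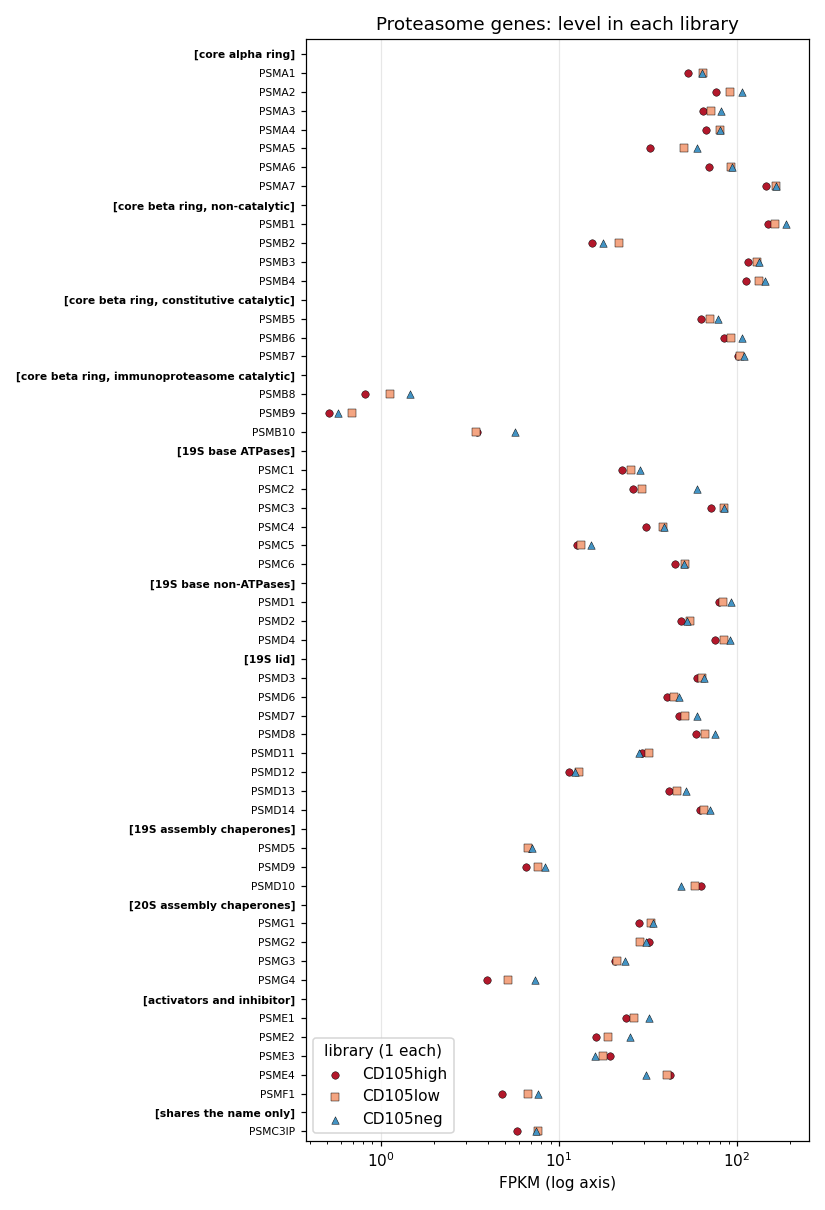
Level of each proteasome gene in FPKM on a log axis, grouped by role, with 1 point per library; PSMA8, listed at 0, and PSMB11, below 0.02 FPKM, are not drawn. The red CD105high point is leftmost for most genes, PSMB8, PSMB9 and PSMB10 lie far below the other beta genes, and PSME3, PSME4 and PSMD10 have CD105high on the right.

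The constitutive catalytic subunits outnumbered those of the immunoproteasome in all 3 populations. PSMB5, which carries the chymotrypsin-like site, stood at 63.3, 70.7 and 78.6 FPKM in CD105high, CD105low and CD105neg (log2 fold change of CD105high against CD105neg -0.31). PSMB6, with the caspase-like site, stood at 85.2, 93.2 and 107 FPKM (-0.33), and PSMB7, with the trypsin-like site, at 101.1, 104 and 109 FPKM (-0.11, a sign that turns with the scaling). Their replacements were scarce. PSMB8, the counterpart of PSMB5, stood at 0.82, 1.13 and 1.46 FPKM, and PSMB9, the counterpart of PSMB6, at 0.51, 0.69 and 0.58 FPKM, below the level used to call a gene measured. PSMB10, the counterpart of PSMB7, stood at 3.46, 3.42 and 5.71 FPKM. PSMB11, which takes the place of PSMB5 in the thymus, was near absent at 0.0060, 0.0112 and 0.0062 FPKM.

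PSMB10 was higher in CD105neg than in the other 2 libraries, which were level with each other; it was 0.59 lower on the log2 scale in CD105high and 0.60 lower in CD105low than in CD105neg. PSMB8 was 0.44 lower in CD105high than in CD105neg, and PSMB9 had no order along CD105. As a share of each catalytic pair in FPKM, PSMB8 made up 1.28%, 1.57% and 1.82% of PSMB8 plus PSMB5 in CD105high, CD105low and CD105neg. PSMB9 made up 0.596%, 0.734% and 0.534% of its pair, and PSMB10 made up 3.31%, 3.17% and 4.97%. Summed over the 3 pairs, the immunoproteasome share was 1.88%, 1.91% and 2.56%. Constitutive transcripts were therefore 52.1, 51.2 and 38.1 times as abundant. PSMB10 and PSMB8 share 42.8% and 18.7% of their sampled sequence with other genes, for PSMB8 mostly with an antisense gene, and these libraries do not mark strand.

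**Figure D3:**
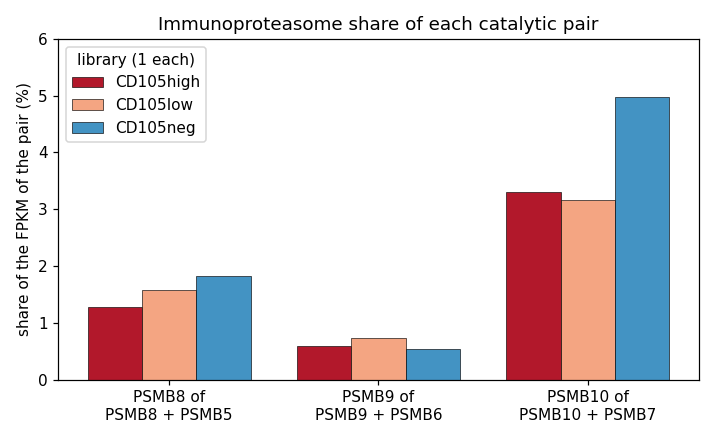
Share of the immunoproteasome gene in the summed FPKM of each catalytic pair, in percent, with 1 bar per library and no error bars because each group has 1 library. All bars lie below 5%, and the PSMB10 bar of CD105neg, at 4.97%, is the tallest.

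A short sequence recurred at the start sites of 5 members, PSMB8, PSMB10, PSME1, PSME2 and PSMG4, and is shown here because 3 of them were lower than CD105neg by 1.5-fold in CD105high. The letters GAAAGCGAAA, an exact form of the interferon-stimulated response element core GAAANNGAAA, were searched on both strands of promoter windows. Windows run from 250 bases before to 50 bases after each annotated start and come from RefSeq on GRCh38.p14, which is not the build named in the submitters' notes, so the positions apply to that table only. Windows were found for 43 of the 49 members. The stretches below, of 60 bases each, are written along the strand of the gene, with the shared letters in capitals; in PSMB8 and PSME1 they read on the opposite strand.
PSMG4: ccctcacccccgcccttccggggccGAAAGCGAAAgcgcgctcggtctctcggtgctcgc
PSME2: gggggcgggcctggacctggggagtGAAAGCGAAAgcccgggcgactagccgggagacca
PSMB10: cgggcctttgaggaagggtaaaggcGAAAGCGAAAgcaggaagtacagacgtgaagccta
PSMB8: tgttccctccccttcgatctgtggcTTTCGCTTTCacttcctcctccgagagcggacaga
PSME1: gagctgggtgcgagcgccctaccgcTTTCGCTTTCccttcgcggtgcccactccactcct

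The PSMG4 stretch lies at chr6:3258889-3258948 on the plus strand, with the capitals starting at position -33 relative to the start site. That of PSME2 lies at chr14:24146604-24146663 on the minus strand (position -28) and that of PSMB10 at chr16:67936837-67936896 on the minus strand (position -21). In PSMB8, at chr6:32844017-32844076 on the minus strand, the letters begin at position -4. In PSME1, at chr14:24136174-24136233 on the plus strand, they begin at position 6, inside the transcribed part. The log2 fold changes of CD105high against CD105neg were -0.74 for PSMG4, -0.61 for PSME2, -0.59 for PSMB10, -0.44 for PSMB8 and -0.42 for PSME1. All 5 were lower, as were 41 of the 46 measured members, and being low was why they were shown. The 10 letters occur in 0.0997% of all 35116 windows, under 34 gene symbols. They were chosen as the form of the core held by more members than any other form. The count of 5 members therefore cannot be set against that share. Besides the 5 members, 15 measured genes hold them, and 9 of the 15 were lower (median -0.08), a share of 60.0% against 61.0% of all measured genes. The 15 include RNF31, a gene of linear ubiquitin chains, and TAP1, a peptide transporter gene. Of the 17 measured genes of the interferon-induced list with a window, 0 hold these exact letters and 14 hold GAAANNGAAA. The match was noticed after the values were seen and is a description of letters, not of binding. The looser core GAAANNGAAA was present for 7 of the 43 members (16.3%) and for 4.38% of all symbols, and TGACNNNGC, the core of the antioxidant response element, for 15 members (34.9%) and 16.1% of all symbols; both were searched on both strands. Of the 14 measured members that hold the second core, 12 were lower in CD105high than in CD105neg, against 61.0% of all measured genes. That is close to the share among all measured members, 41 of 46. The signs of PSMD5 and PSMD12, among the 12, depended on the scaling. The other 2, PSME4 and PSMG2, were higher.

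The base of the regulatory particle held the member that differed most. PSMC2, 1 of the 6 ATPases that unfold substrates, stood at 26.3 FPKM in CD105high, 29.4 FPKM in CD105low and 59.8 FPKM in CD105neg. CD105neg stood apart and the other 2 libraries were close. The log2 fold change was -1.16 for CD105high against CD105neg, below which lay 0.652% of all measured genes, and -0.998 for CD105low against CD105neg. The other ATPases did not share this gap. PSMC4 stood at 31.1, 38.6 and 39.1 FPKM (-0.32 for CD105high against CD105neg), and PSMC1, PSMC3, PSMC5 and PSMC6 lay between -0.31 and -0.17 in the same comparison. Against the median of the other 5 ATPase genes, PSMC2 stood at 0.85 in CD105high, 0.76 in CD105low and 1.53 in CD105neg. PSMC2 shares 1.14% of its sampled sequence with another gene, so copies elsewhere cover little of it. PSMC1, by contrast, is uncertain, with 85.9% shared, mostly with the overlapping gene NRDE2. In CD105high, CD105low and CD105neg, PSMC1 stood at 22.8, 25.3 and 28.5 FPKM and NRDE2 at 2.21, 2.99 and 2.63 FPKM. PSMC6 shares 17.8% of its sampled sequence. PSMC5 was the lowest ATPase, at 12.7, 13.4 and 15.2 FPKM.

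The non-ATPase subunits of the base differed less. PSMD1 and PSMD2, the large scaffold subunits, stood at 79.7, 83.8 and 92.8 FPKM and at 48.7, 54.3 and 52.2 FPKM, with log2 fold changes of CD105high against CD105neg of -0.22 and -0.10. PSMD4, a receptor for ubiquitin chains, stood at 75.6, 85.1 and 92.1 FPKM (-0.28), with 16.1% of its sequence shared. None of the 3 reached a ratio of 0.8 or stood 25% higher in any comparison.

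In the lid, 7 of 8 genes were lower in CD105high than in CD105neg, against 61.0% of all measured genes, and 6 of 8 were with each library scaled to the same sum, where PSMD12 turned. PSMD8 stood at 59.4, 66.3 and 75.7 FPKM (-0.35 for CD105high against CD105neg), and PSMD7, the partner of the deubiquitinase in the lid, at 47.3, 50.9 and 59.8 FPKM (-0.33), with 25.97% of its sequence shared. PSMD14, the deubiquitinase itself, was at 62.3, 65.8 and 70.8 FPKM (-0.18). These 3 genes were lowest in CD105high and highest in CD105neg. PSMD13 lay at -0.30, and PSMD6, PSMD3 and PSMD12 between -0.22 and -0.11. PSMD11, a lid subunit whose abundance has been tied to proteasome assembly in human embryonic stem cells, was the exception at 29.5, 32.0 and 28.4 FPKM (0.06). PSMD12 was the scarcest lid gene, at 11.4, 13.1 and 12.4 FPKM. Its median annotated transcript length, 3421.5 bases, is the longest of the 8, and the part of length was not tested.

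**Figure D4:**
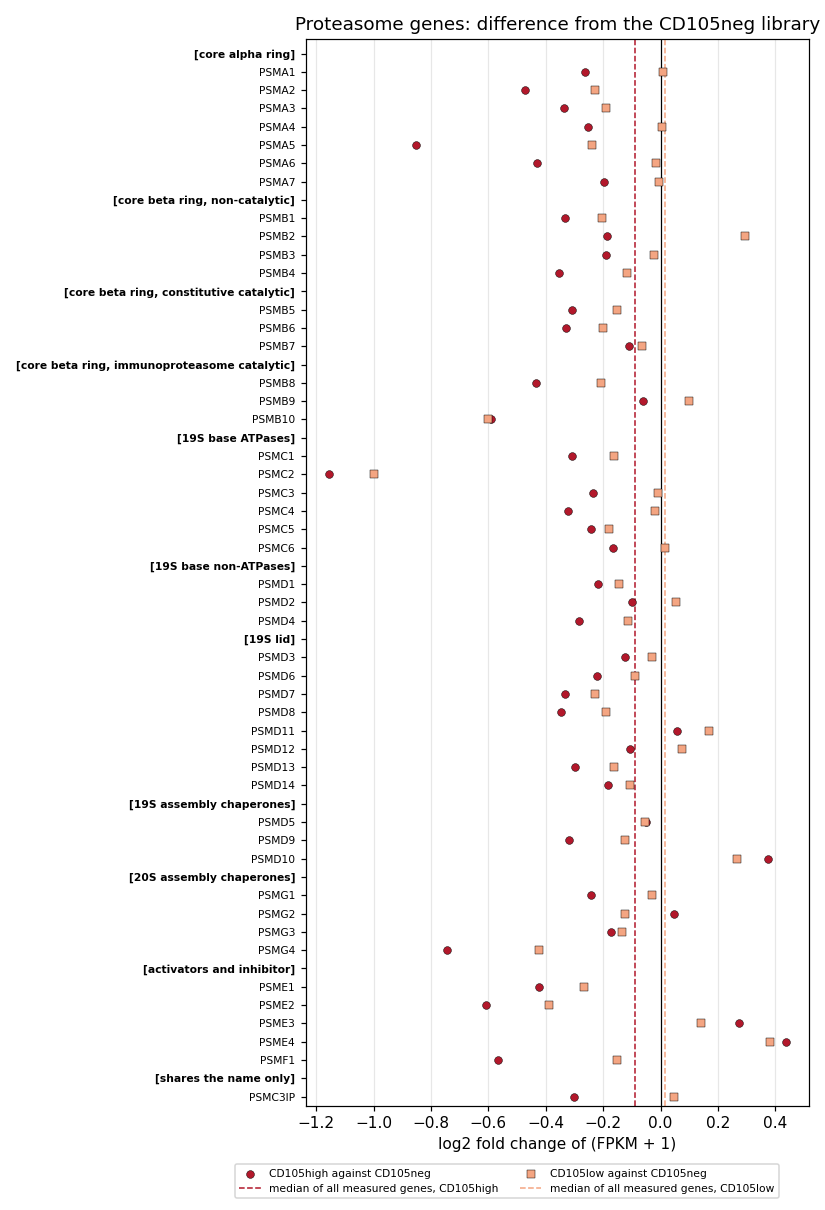
Log2 fold change of FPKM plus 1 against the CD105neg library for each proteasome gene, grouped by role; circles are CD105high, squares CD105low, and dashed lines mark the medians of all measured genes (-0.09 and 0.02). PSMC2 is farthest left for both, PSMA5 lies at -0.85 for CD105high and -0.24 for CD105low, and PSME4, PSME3, PSMD10 and PSMD11 lie right of 0 for both. In the row labels, 20S is the core particle and 19S the regulatory particle.

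Assembly chaperones did not move as a block. PSMD10, also known as gankyrin, helps to build the base and was higher with CD105, at 62.9 FPKM in CD105high, 58.4 FPKM in CD105low and 48.4 FPKM in CD105neg (0.37 for CD105high against CD105neg). The other chaperones of the base did not follow it. PSMD9 stood at 6.54, 7.64 and 8.42 FPKM (-0.32), with 31.4% of its sequence shared, and PSMD5 at 6.78, 6.76 and 7.06 FPKM (-0.05). Among the chaperones of the core, PSMG4 was the most different, at 3.97, 5.20 and 7.32 FPKM (-0.74), with 12.2% shared. Its partner PSMG3 stood at 20.7, 21.3 and 23.5 FPKM (-0.17). PSMG1 and PSMG2, which form the other pair, stood at 28.3, 32.9 and 33.6 FPKM (-0.24) and at 32.2, 28.5 and 31.1 FPKM (0.05). PSMG4 was thus the scarcest of the 4 chaperones of the core in every library.

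The activators parted by type. PSME1 and PSME2 encode the alpha and beta chains of the interferon-inducible PA28 cap and were both lower with CD105. PSME1 stood at 23.8 FPKM in CD105high, 26.6 FPKM in CD105low and 32.2 FPKM in CD105neg (-0.42 for CD105high against CD105neg). PSME2 stood at 16.2, 18.95 and 25.2 FPKM (-0.61), with 10.1% of its sequence shared. The nuclear activators were higher with CD105. PSME3, the gamma form of PA28, stood at 19.4, 17.7 and 15.9 FPKM (0.27), and PSME4, which encodes PA200, at 42.0, 40.5 and 30.8 FPKM (0.44). PSME4 was thus 2.11 times the mean of PSME1 and PSME2 in CD105high, 1.77 times in CD105low and 1.07 times in CD105neg. For PSME3 the same ratio was 0.97, 0.77 and 0.55. These ratios within a library do not depend on its scaling. PSMF1, which encodes the inhibitor PI31, stood at 4.82, 6.77 and 7.62 FPKM (-0.57). Transcripts of PSME4 have a median annotated length of 7099 bases, the longest of the measured members.

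**Figure D5:**
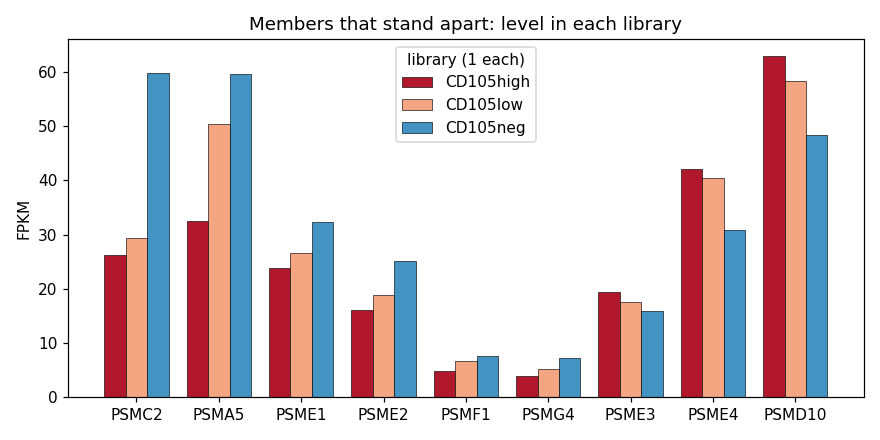
Level in FPKM of 9 members chosen for their differences, with 1 bar per library. PSMC2 has a single high bar, CD105neg at 59.8 FPKM; PSMA5, PSME1, PSME2, PSMF1 and PSMG4 are lowest in CD105high, and PSME3, PSME4 and PSMD10 are highest there.

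Across the 3 libraries, 32 of the 46 measured members were lower in step with CD105, that is lowest in CD105high, between in CD105low and highest in CD105neg, against 36.4% of all measured genes. The reverse order was found for 3 members, PSME3, PSME4 and PSMD10, against 17.6% of all measured genes. When each step had to be at least 1.1-fold, 13 members were lower in step (background 12.8%) and none was higher in step (background 6.20%), so most steps were small. With each library scaled to the same sum, which was added once the values were known, 21 members were lower in step (background 26.7%) and 3 higher (background 29.8%).

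Between CD105low and CD105neg, 35 of the 46 measured members were lower, against 47.3% of all measured genes, and 11 were higher, against 52.7%, with a median log2 fold change of -0.11 against 0.02. Scaling to equal sums gave 30 lower and 16 higher, with the median of all measured genes at 0.04. The signs of PSMC3, PSMC4, PSMC6, PSMB3 and 4 alpha genes turned with the scaling. A ratio of 0.8 or less was found for 4 members (background 9.50%): PSMC2, PSMB10, PSMG4 and PSME2. PSME4 alone was at least 25% higher (background 12.7%). At 1.5-fold, PSMC2 and PSMB10 were lower (background 2.18%) and none was higher (background 4.13%). This comparison uses the same CD105neg library as the first.

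Between CD105high and CD105low, 40 members were lower, against 71.5% of all measured genes, and 6 were higher, against 28.5%. The median was -0.16 against -0.10. Centring on the median of all measured genes gave 34 lower, against 50.0% of all measured genes, and 12 higher. Scaling to equal sums gave the same counts, with the median of all measured genes at -0.01. Signs that turned there were those of PSMB7, PSMC5, PSMD1, PSMD3, PSMD14 and PSMG3. A ratio of 0.8 or less was found for 5 members (background 11.2%), PSMA5, PSMB2, PSMA6, PSMF1 and PSMC3IP, and none was 25% higher (background 4.16%). PSMA5 alone was lower by 1.5-fold (background 2.19%), and it was not after either rescaling; none was higher by 1.5-fold (background 1.18%). PSMC3IP stood at 5.82, 7.69 and 7.42 FPKM in CD105high, CD105low and CD105neg, and 24.5% of its sequence is shared.

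Proteins that work with the proteasome but are not covered by the name rule differed less from CD105neg. Of 22 measured partners, 15 were lower in CD105high than in CD105neg, against 61.0% of all measured genes, and 7 were higher, against 39.0%. Their median was -0.10, close to that of all measured genes. None reached 1.5-fold. POMP, the chaperone that matures the beta ring, stood at 100.6, 106.7 and 106.8 FPKM in CD105high, CD105low and CD105neg. ADRM1, a ubiquitin receptor of the base with 17.02% of its sequence shared, stood at 60.2, 63.2 and 61.4 FPKM. SEM1, the smallest subunit of the lid, stood at 24.8, 27.5 and 31.0 FPKM (-0.31). PAAF1, a chaperone of the ATPases, stood at 9.16, 9.74 and 11.5 FPKM, and the deubiquitinases USP14 and UCHL5 at 10.2, 14.0 and 10.1 FPKM and at 9.71, 11.5 and 10.9 FPKM. DDI2, a protease that acts on ubiquitinated proteins, and ZFAND5, which stimulates the proteasome, were higher, at 10.3, 9.98 and 7.53 FPKM (0.40, with 19.2% of its sequence shared) and at 57.2, 56.3 and 44.7 FPKM (0.35).

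Genes that supply and activate ubiquitin were split in direction. Of 21 measured genes for ubiquitin, its activation and the VCP segregase, 10 were lower and 11 higher in CD105high than in CD105neg (median 0.05). Among all measured genes, 61.0% were lower and 39.0% higher. At 1.5-fold, 1 of the 21 passed in each direction (background 6.88% lower and 5.65% higher). UBB, a polyubiquitin gene, stood at 281 FPKM in CD105high, 316 FPKM in CD105low and 391 FPKM in CD105neg (-0.47). RPS27A, which encodes ubiquitin fused to a ribosomal protein, stood at 437, 488 and 682 FPKM (-0.64). Both were lowest in CD105high, and they share 42.7% and 28.6% of their sampled sequence with other genes.

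Interferon-induced genes outside the proteasome were mostly higher in CD105high, but 7 were lower there, as were PSMB8, PSMB10, PSME1 and PSME2. Of 21 measured genes of that list, 14 were higher and 7 lower in CD105high than in CD105neg (median 0.12). Among all measured genes, 39.0% were higher and 61.0% lower. At 1.5-fold, 7 genes of the list were higher (background 5.65%) and 1 was lower (background 6.88%). IFIT1 stood at 36.7, 21.2 and 8.57 FPKM (1.98), and IFI44, IFIT2 and IFIT3 had log2 fold changes of 1.45, 1.40 and 1.38. Genes that present peptides on MHC class I were mixed. Of 14 measured, 6 were higher and 8 lower (median -0.06), against 39.0% and 61.0% of all measured genes. At 1.5-fold, 1 of the 14 passed in each direction. B2M stood at 21.1, 57.0 and 12.2 FPKM, HLA-E at 69.5, 62.2 and 48.6 FPKM, NLRC5 at 1.251, 1.54 and 0.67 FPKM, and the peptide loading gene TAPBP at 2.50, 3.97 and 4.96 FPKM (-0.77). The transporter genes TAP1 and TAP2 stood at 0.99, 1.103 and 1.27 FPKM and at 0.67, 0.79 and 0.91 FPKM, low in every library like PSMB8 and PSMB9, which lie beside them in the genome.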

How the data were processed

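Per the labels, RNA was made into libraries with a TruSeq kit from 2 ug of total RNA, after 2 days with activin A (40 ng/ml) and BMP4 (50 ng/ml) and 3 days with VEGF (40 ng/ml) and bFGF (50 ng/ml); the samples carry day 4. BWA, Bowtie, RSEM and hg19 appear in the submitters' processing notes; no source read here states versions, filters or annotation. The deposited values were taken as FPKM made by the authors. They could also be TPM, which would alter each library by a constant factor. Genes were called measured at 1 FPKM in at least 1 of the 3 libraries; log2 fold changes used a pseudocount of 1, which makes differences of low genes look smaller, and no test was run because each group has 1 library. Calls by fold are descriptive. Shared sequence is the share of 50-base pieces, taken every 10 bases from GENCODE 29 transcripts, found on either strand in another gene. Lengths are medians of the protein-coding transcripts in that release. Alternatives changed the pseudocount, filter, scaling or membership. Calculations used Python 3.11.15 with pandas 2.3.3. Only the fold change calculation was checked, on values set to known ratios without noise. Members, lists and thresholds were chosen with earlier results of these data known. Named are all members, POMP, ADRM1, SEM1, PAAF1, UCHL5 and USP14, ENG, PECAM1 and CD34, and the 4 measured genes of each other list with the largest log2 fold change of CD105high against CD105neg; TAP1, TAP2, RNF31 and the 10 promoter letters were chosen after values were seen. Some genes that this rule names are not reported here.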

Additional observations from a re-analysis of the deposited data

How the results depend on the processing

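The medians kept their sign under every alternative run, and the counts of members lower by any amount stayed within 1.5 times their main values. The median for CD105high against CD105neg was -0.15 with each library scaled to the same sum. For CD105high against CD105neg, the count of members lower by 1.5-fold or more was 5 of 46. It became 7 with a pseudocount of 0.1, 2 with a pseudocount of 5, 3 after centring and 3 after sum scaling. With fewer members kept, it was 3 of the 39 at or above 10 FPKM. It was 2 of the 33 sharing under 10% of their sequence, a setting added after the data were seen. For CD105low against CD105neg that count, 2, became 1 with a pseudocount of 5, at or above 10 FPKM and among the members sharing little sequence. For CD105high against CD105low the count of 1 became 0 with a pseudocount of 5, after centring and after sum scaling. With each step at least 1.1-fold, 13 members were lower and 0 higher in step, against 32 and 3, and after sum scaling, added after the data were seen, 21 were lower. Adding 1 to both genes of a pair gave, in CD105high, CD105low and CD105neg, shares of 2.75%, 2.89% and 3.00% for PSMB8 and 1.72%, 1.76% and 1.44% for PSMB9. Summing the pairs gave 1.88%, 1.91% and 2.56%, in place of the separate shares of PSMB9 and PSMB10. No called gene changed sign. No paired analysis was possible because each group has 1 library, and none could be left out. The lack of replicates and of fragment counts limits every value, most of all below 1 FPKM.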
